A study of Mus musculus with 2 samples.

Results

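The collagen genes of the mouse were compared between cultured mouse neural retinal progenitor cells (mNRPCs) and retina tissue. Members were all genes whose symbol has the form Col, number, a, number, after the transcript rows of the table had been joined to gene symbols and summed per gene. All 44 such genes were found, out of 31253 genes in the table, and they came from 173 of 106754 transcript rows. RNA sequencing values of 2 libraries were used, 1 per group, both labelled C57BL/6. The first library was made from mNRPCs that had been kept for 24 passages. The methods of the study describe mNRPCs as cells isolated from the neural retina of mice aged 8 to 10 weeks, plated on dishes coated with 2% Matrigel, a basement membrane extract, and grown in basic medium with 10 ng/ml bFGF (basic fibroblast growth factor) and 2 μM CHIR99021, which blocks glycogen synthase kinase 3. Retina tissue gave the other library, for which the labels give no age and no treatment. The cultured library is 1 sample at 1 passage, the sources used here do not say how many mice either sample came from, and the tissue holds many cell types. With 1 library per group no difference below has a replicate check, and no p-value was calculated.

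Collagens are proteins of the extracellular matrix in which 3 chains wind around each other into a triple helix. Fibrillar collagens form the cross-striated fibrils of connective tissue, while type IV collagens form the network of basement membranes. FACITs (fibril-associated collagens with interrupted triple helices) sit on the surface of fibrils, type VI collagens form beaded filaments, and transmembrane collagens are held in the cell membrane. In the eye, collagens of types II, IX, V and XI are the fibril collagens of the vitreous, and type IV collagens lie in the inner limiting membrane, in Bruch's membrane and around retinal vessels. The chains are hydroxylated, folded and glycosylated in the endoplasmic reticulum, trimmed after secretion and then crosslinked.

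The values are FPKM, fragments counted relative to transcript length and to the mapped total, and so can also be compared between genes. Log2 ratios compare mNRPC with retina after adding 1 to each FPKM, and genes with a ratio of at least 1 in size are called higher or lower. The folds given below are plain FPKM ratios, with a 95% Clopper-Pearson interval from estimated fragment numbers, which covers counting error only. For low genes the plain fold is therefore larger than the log2 ratio shows. The depth, estimated in units of 1e+06 fragments, was 6.46 (mNRPC) and 5.20 (retina), and FPKM summed to 616860 and 432256. A gene at 0 is described as listed at 0, because such a value can also be a failed estimate. In the retina library each of 14 rod markers was detected, with a summed level of 33506 FPKM, against 24.4 FPKM in the mNRPC library. Among retinal progenitor markers, Pax6 was at 123 FPKM in mNRPCs and Sox2 at 231, while Rax and Six6 were listed at 0. The study itself reports RAX in mNRPCs by RT-PCR.

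Collagen RNA was more abundant in mNRPCs than in retina, but it came from fewer genes. The 44 genes summed to 1003 FPKM in mNRPCs, which was 0.163% of all FPKM of that library, and to 154 FPKM in retina, which was 0.0355%. The ratio of these sums was 6.53, and 3.61 without Col3a1. As a share of estimated fragments, the collagens held 0.548% and 0.0766%. At least 1 FPKM was reached by 19 collagen genes in the culture and by 26 in the tissue, and 11 were listed at 0 in mNRPCs against 1, Col6a3, in retina. Over all 31253 genes these counts went the same way. At least 1 FPKM was reached by 11076 genes in mNRPCs and 12639 in retina, and 16079 and 14196 were listed at 0. In mNRPCs Col3a1 alone held 44.8% of the collagen FPKM, and the leading 8 genes together held 91.0%. In retina the leading gene, Col9a1, held 15.1% and the leading 8 genes 64.3%.

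Of the 32 collagen genes with at least 1 FPKM in either library, 12 were higher in mNRPCs, 14 were lower and 6 passed the threshold in neither direction, so that 26 were called (54.4% of all genes compared were). The higher genes made up 37.5% of those compared, against 24.5% of all 13780 genes, and the lower genes were 43.8%, against 30.0% of all genes. At a threshold of 4-fold on the same scale 12 collagen genes were still higher (11.2% of all genes were), and 5 were lower (14.1% of all genes were). The median log2 ratio of the 32 genes was −0.71, with a 95% order-statistic interval over the genes of −1.37 to 3.23, while the median of all genes was −0.12. At a minimum of 5 FPKM, which left 12 higher and 6 lower collagen genes, the median turned to 3.35. The 12 higher genes ranged from 2.34 to 8.43 in log2 ratio. Of the 14 lower genes 6 were listed at 0 in mNRPCs. With curated rows only, Col16a1, Col20a1 and Col26a1 fell under 1 FPKM and were no longer compared, and with accessions matched with version Col4a2, Col5a3 and Col11a2 were not compared either. In bulk RNA, fewer cells of a type and less RNA per cell cannot be told apart, which holds for each lower gene.

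**Figure D1:**
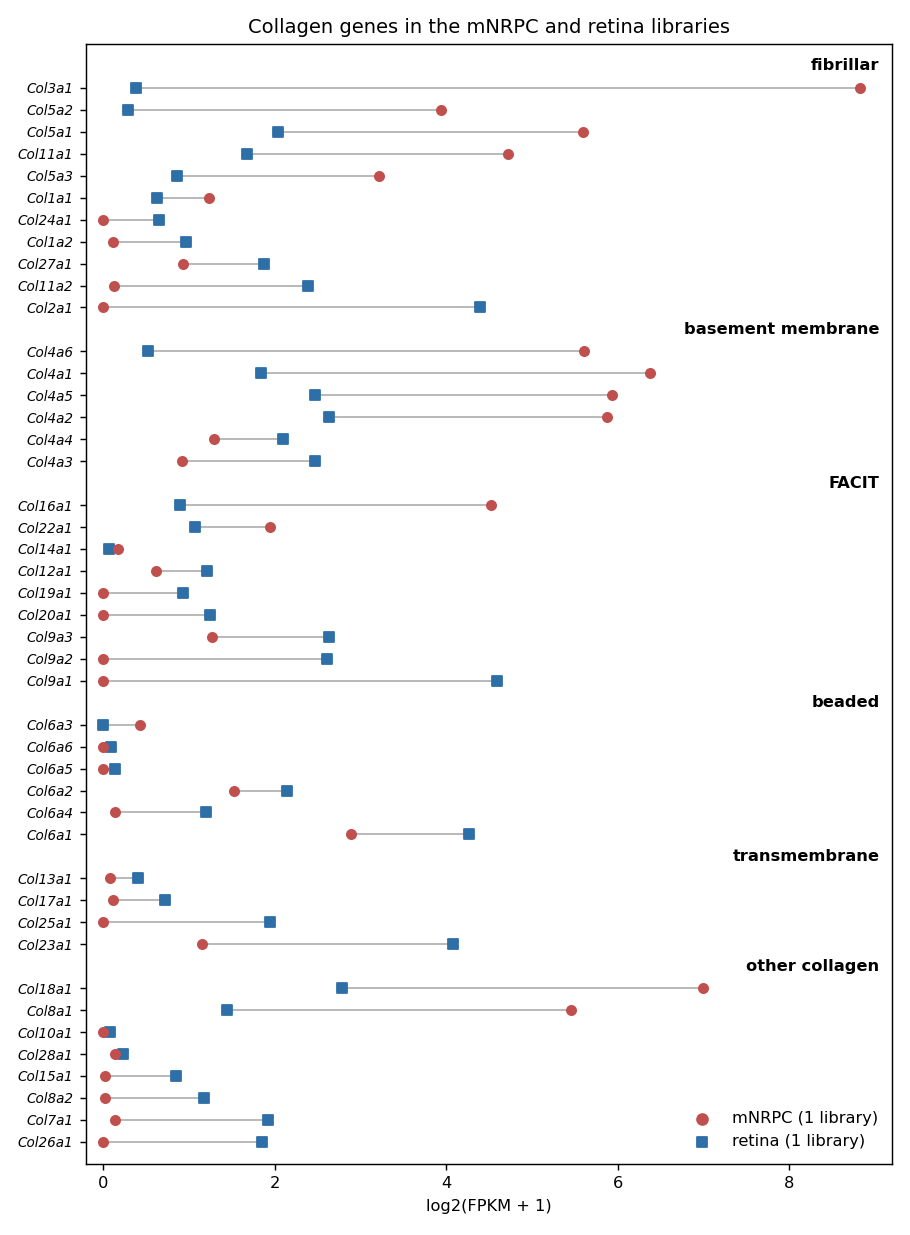
Level of each of the 44 collagen genes as log2(FPKM + 1), with circles for the mNRPC library and squares for the retina library, grouped by class and ordered by log2 ratio within a class. The Col3a1 circle lies far to the right of its square, whereas Col2a1, Col9a1 and Col23a1 have their squares to the right.

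The classes did not move together. Summed over its genes, the fibrillar class had 547 FPKM in mNRPCs and 35.8 in retina, a ratio of 15.3. The basement membrane class was at 249.8 and 20.6 FPKM, a ratio of 12.1. The FACIT class was at 26.8 and 39.1 FPKM, the beaded class at 8.74 and 23.1, and the transmembrane class at 1.35 and 19.7, so that these were 1.46, 2.64 and 14.5 times as high in retina. The FACIT value rests on predicted transcripts of Col16a1, and its summed log2 ratio went from −0.53 to −3.29 with curated rows only. The remaining collagens, of types VII, VIII, X, XV, XVIII, XXVI and XXVIII, were at 169 and 15.3 FPKM, a ratio of 11.1. The make-up of the collagen RNA differed accordingly. Fibrillar and basement membrane genes held 54.5% and 24.9% of the collagen FPKM of mNRPCs, but 23.3% and 13.4% of that of retina. FACIT, beaded and transmembrane genes held 25.5%, 15.0% and 12.8% in retina, and 2.68%, 0.871% and 0.135% in mNRPCs.

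**Figure D2:**
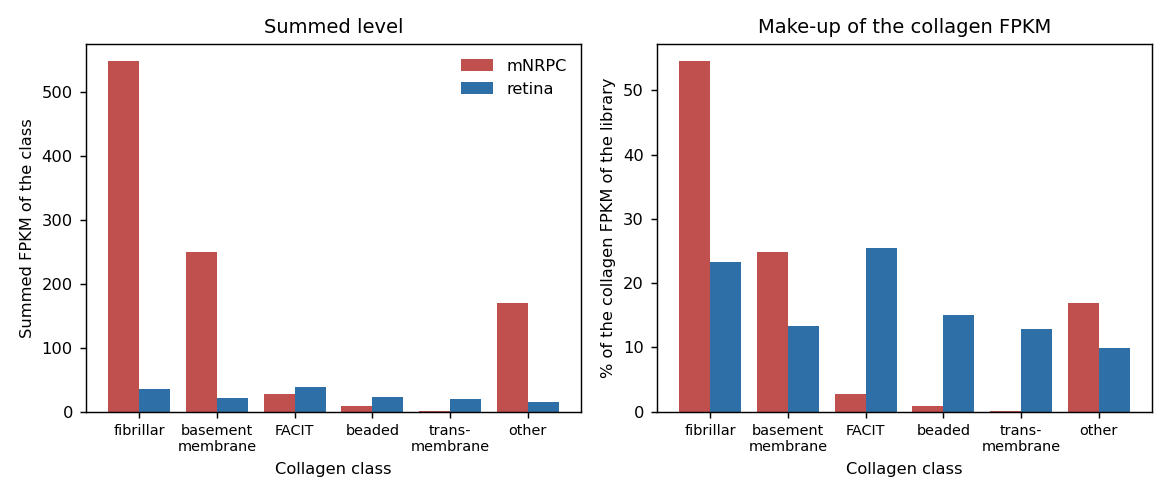
Summed FPKM of each collagen class (left) and its share of the collagen FPKM of the library in percent (right), for the mNRPC library and the retina library, 1 library each and therefore without error bars. The fibrillar bar of mNRPCs reaches 547 FPKM, and in retina no class holds more than 25.5% of the collagen FPKM.

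Col3a1, the gene of the type III collagen of distensible tissues such as vessel walls and skin, gave the largest difference of the family. It was at 449.8 FPKM in mNRPCs and 0.311 FPKM in retina, 1448-fold higher (interval 762 to 3167). The retina value rests on an estimated 8.99 fragments and the mNRPC value on 16157. By level it was gene 187 of 31253 in mNRPCs, and by log2 ratio it was second among the 13780 genes compared. Its single row in the table was a curated RefSeq transcript. Without Col3a1 the fibrillar sum was still higher in mNRPCs, at 97.6 FPKM against 35.5, but the ratio was 2.75.

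Type I collagen, the main fibril protein of bone, skin and tendon, was low in both libraries. Col1a1 had 1.35 FPKM in mNRPCs and 0.552 in retina, a ratio of 2.45 (1.40 to 4.52), and its log2 ratio of 0.60 did not pass the threshold. Col1a2 was at 0.0843 FPKM in mNRPCs (about 2.91 fragments) and reached 0.952 in retina, a ratio of 11.3 in the other direction (3.46 to 58.3). Col1a2 reached 1 FPKM in neither library and was not among the genes compared. In mNRPCs, Col3a1 thus stood alone among the chains of types I and III.

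The genes of types V and XI encode chains of thin fibrils, which can be mixed between both types. Col5a1, Col5a2, Col5a3 and Col11a1 were each higher in mNRPCs. Col5a1 was at 47.2 and 3.10 FPKM in mNRPCs and retina, 15.3-fold higher (12.8 to 18.3). Col5a2 was at 14.4 and 0.220 FPKM, 65.3-fold higher (32.9 to 152), and the retina value rests on an estimated 7.60 fragments. Col5a3 was at 8.27 and 0.826 FPKM, with a log2 ratio of 2.34 (fold interval 6.72 to 15.6). Col11a1 was at 25.3 and 2.21 FPKM, 11.4-fold higher (9.22 to 14.4), and its log2 ratio of 3.03 was 1.42 with accessions matched with version. The partner chain Col11a2 went the other way, with 0.0961 FPKM in the culture against 4.23 in the tissue (log2 ratio −2.25). The mNRPC value of Col11a2 came to an estimated 3.75 fragments, and the log2 ratio was −1.56 with curated rows only.

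Col2a1, the gene of the type II collagen of cartilage and vitreous, was listed at 0 in mNRPCs, against 20.1 FPKM in retina, an estimated 522 fragments. At this length, 3 fragments of the mNRPC library correspond to 0.0932 FPKM. Col27a1, which encodes a fibrillar collagen of cartilage, was at 0.902 and 2.67 FPKM, a log2 ratio of −0.95 that did not pass the threshold. The ratio was −1.02 by upper quartile scaling and −1.01 with curated rows only, and so passed it there. Col24a1 was listed at 0 in mNRPCs, against 0.574 FPKM in retina.

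The type IV genes split by chain. In mNRPCs Col4a1 was at 82.1 FPKM and Col4a2 at 57.5, against 2.59 and 5.22 in retina. These chains make up the type IV collagen found in basement membranes throughout the body. Col4a1 was 31.6-fold (25.6 to 39.5) and Col4a2 11-fold (9.44 to 12.9) higher in mNRPCs. Col4a5 was at 60.3 and 4.55 FPKM, 13.2-fold higher (11.2 to 15.7), and its log2 ratio of 3.46 was 4.58 with curated rows only. Col4a6, its partner chain in basement membranes such as those of smooth muscle and skin, was at 47.7 and 0.440 FPKM, 108-fold higher (65.5 to 194). Together these 4 genes were at 247 FPKM in mNRPCs and 12.8 in retina. Col4a3 and Col4a4, whose chains join the Col4a5 chain in the basement membrane of the kidney glomerulus, were not higher. Col4a3 had 0.888 FPKM in mNRPCs and 4.54 in retina, 5.11-fold lower (3.73 to 7.14). Col4a4 was at 1.46 and 3.28 FPKM, with a log2 ratio of −0.80 that did not pass the threshold.

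Among the FACITs 1 gene of the 7 compared was higher in mNRPCs and 4 were lower. Col16a1, found in skin and at basement membranes, was at 21.9 and 0.868 FPKM, 25.3-fold higher (16.7 to 40.1). Most of this was on predicted transcripts, and its curated row held 0.552 FPKM in the culture and 1.52e-06 in the tissue. Type IX collagen, which coats type II fibrils, was lower in all of its chains. Col9a1 was listed at 0 in mNRPCs, against 23.2 FPKM in retina, the highest collagen gene of that library. Col9a2 was listed at 0 and at 5.10 FPKM. Col9a3 was at 1.42 and 5.20 FPKM, 3.67-fold lower (2.33 to 5.97). Of the remaining FACITs, Col20a1 was listed at 0 in mNRPCs, against 1.38 FPKM in retina, of which its curated row held 0.869. Col22a1, a collagen of tissue junctions, was at 2.84 and 1.10 FPKM (log2 ratio 0.87), and Col12a1 at 0.537 and 1.31 (−0.59). Col19a1 and Col14a1 did not reach 1 FPKM in either library.

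Of the 6 beaded filament genes of type VI, 3 were compared, 2 of these were lower in mNRPCs and none was higher. Col6a1 was at 6.42 FPKM in mNRPCs, against 18.2 in retina, 2.83-fold lower (2.36 to 3.41), and was the third highest collagen gene of the retina. Col6a2 was at 1.88 and 3.44 FPKM, a log2 ratio of −0.63, which did not pass the threshold. Col6a4 was at 0.0985 and 1.30 FPKM (−1.06). Col6a3, whose chain joins those of Col6a1 and Col6a2 in the type VI molecule, had 0.351 FPKM in mNRPCs, while in retina it was listed at 0. Col6a5 and Col6a6 stayed below 0.1 FPKM in both libraries.

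The transmembrane genes were the class with the lowest level in mNRPCs. Col23a1 had 1.22 FPKM in mNRPCs and 15.9 in retina, 13.0-fold lower (9.55 to 18.2). Col25a1, the gene of a transmembrane collagen of neurons, was listed at 0 in mNRPCs, against 2.86 FPKM in retina. Col13a1 and Col17a1, the latter a hemidesmosome protein of epithelia, stayed below 1 FPKM in both libraries.

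Of the remaining genes, 2 were high in mNRPCs. Col18a1 encodes a basement membrane collagen from which the fragment endostatin is released. Its level was 126 and 5.87 FPKM, 21.5-fold higher in mNRPCs (18.3 to 25.5). Col8a1 encodes a short chain of the hexagonal lattice under the corneal endothelium and of vessel walls. It was at 42.7 and 1.73 FPKM, 24.7-fold higher (18.4 to 33.9). Its partner chain Col8a2 was at 0.0152 FPKM in mNRPCs, below 1 estimated fragment, against 1.26 in retina. Col7a1, the gene of the anchoring fibrils of skin, was at 0.105 and 2.78 FPKM, 26.4-fold lower (11.8 to 73.3). Col26a1 was listed at 0 in mNRPCs, against 2.61 FPKM in retina, of which its curated row held 0.0182 and 1 predicted row 2.46. Col15a1, Col10a1 and Col28a1 stayed below 1 FPKM in both.

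**Figure D3:**
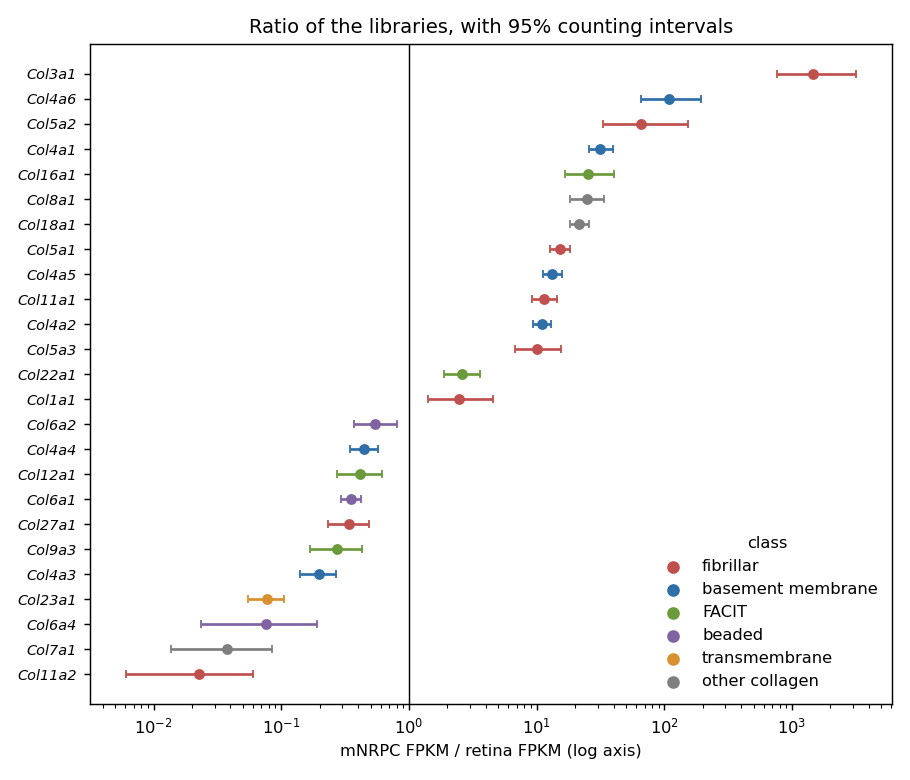
Ratio of mNRPC FPKM to retina FPKM on a log axis for the 25 collagen genes with at least 1 FPKM in either library and at least 1 estimated fragment in each, coloured by class, with bars for the 95% counting interval. Col3a1 stands at 1448, Col4a6 follows at 108, and 7 compared genes with fewer fragments in mNRPCs are not drawn.

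Because FPKM is normalised to length, the chains of one collagen type can be compared within a library. The ratio of Col4a1 to Col4a2 was 1.43 in mNRPCs (1.36 to 1.5) and 0.497 in retina (0.381 to 0.645), so their order was reversed between the libraries. The ratio of Col1a1 to Col1a2 was 16.0 (5.19 to 80.3) in mNRPCs and 0.579 (0.295 to 1.11) in retina. Col6a1 exceeded Col6a2 in both libraries, by 3.42 (2.47 to 4.82) and 5.29 (4.09 to 6.91). Col5a1 exceeded Col5a2 by 3.28 (3.0 to 3.59) in mNRPCs and 14.0 (6.93 to 33.2) in retina. With curated rows only, the ratio of Col5a1 to Col5a2 in mNRPCs was 2.26. Col9a2 and Col9a3 were nearly equal in retina, with a ratio of 0.980 (0.705 to 1.36), whereas in mNRPCs Col9a2 was listed at 0. These intervals cover counting error, not the spread between cultures or animals.

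Several collagen genes lie next to each other. Positions are from RefSeq on GRCm38.p6, and the notes of the submitters name GRCm38.p3. Among the 44 genes, 8 pairs of neighbours were separated by less than 100000 bp, a distance set after the values were seen. In each of the 8 pairs both genes had the larger FPKM in the same library, 3 in mNRPCs and 5 in retina. Both genes passed the threshold in the 3 mNRPC pairs, whereas each retina pair holds a gene that did not pass it or was not compared. Col4a1 (chromosome 8, 11198423 to 11312889) and Col4a2 (11312805 to 11449287) are arranged head to head and overlap by 85 bp. Col4a6 (chromosome X, 141165403 to 141474095) and Col4a5 (141475370 to 141689236) are separated by 1274 bp. Col3a1 (chromosome 1, 45311538 to 45349706) and Col5a2 (45374331 to 45503282) are separated by 24624 bp. The pairs with the larger retina values were Col4a4 and Col4a3, which overlap by 114 bp, Col9a1 and Col19a1, Col6a2 and Col6a1, Col6a6 and Col6a5, and Col6a5 and Col6a4. Over all 44 genes 16 had the higher FPKM in mNRPCs and 28 in retina.

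The start site behind a value could be read for genes with several curated transcripts. The retina level of Col9a1 was almost all on 1 curated transcript, which had 23.0 FPKM (99.1% of the gene) and is 3059 bp long in GENCODE. The longer curated transcript, which starts at 24177610 on chromosome 1, was at 0.205 FPKM. The shorter transcript starts inside the gene, at 24195187 in GENCODE and at 24195203 in the RefSeq promoter table, and lacks the amino-terminal domain of the long form. For Col18a1, the curated transcript that starts at the outer site of the gene held 121 of 126 FPKM in mNRPCs (95.8%) and 3.76 of 5.87 in retina (64.0%). A transcript from the inner start site at 77113705 on chromosome 10, held 0.0310% in mNRPCs and 15.6% in retina. The share of a single transcript is an estimate and less certain than the sum of the gene.

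The 250 bases before the start are shown for 4 start sites, chosen after the values were seen among genes with large differences; they are not the 4 largest. They are the start of Col3a1, those of Col8a1 and Col18a1, both higher in mNRPCs, and the inner start of Col9a1, which carried the retina level. The sequences are from RefSeq (GRCm38.p6) and are written 5′ to 3′ on the strand of the gene. Capitals mark a TATA box, searched as TATAAA, the motif called CCAAT box, searched by these 5 letters, and a GC box, searched as GGGCGG. Both strands were searched; a match on the other strand is shown as its reverse complement. Col3a1 is at chr1:45311288-45311537 on the plus strand, Col8a1 at chr16:57754738-57754987 on the minus strand, Col18a1 at chr10:77166531-77166780 on the minus strand and Col9a1 at chr1:24194953-24195202 on the plus strand.
Col3a1: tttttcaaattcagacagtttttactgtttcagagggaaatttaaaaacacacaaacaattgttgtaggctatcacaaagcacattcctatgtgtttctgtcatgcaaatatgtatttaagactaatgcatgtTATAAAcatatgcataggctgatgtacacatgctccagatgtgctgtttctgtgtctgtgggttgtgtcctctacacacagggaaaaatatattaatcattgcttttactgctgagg
Col8a1: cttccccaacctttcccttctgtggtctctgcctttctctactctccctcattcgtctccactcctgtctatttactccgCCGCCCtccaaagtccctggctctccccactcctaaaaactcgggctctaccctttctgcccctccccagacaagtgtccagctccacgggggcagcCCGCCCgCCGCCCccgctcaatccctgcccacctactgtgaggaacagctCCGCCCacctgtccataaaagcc
Col18a1: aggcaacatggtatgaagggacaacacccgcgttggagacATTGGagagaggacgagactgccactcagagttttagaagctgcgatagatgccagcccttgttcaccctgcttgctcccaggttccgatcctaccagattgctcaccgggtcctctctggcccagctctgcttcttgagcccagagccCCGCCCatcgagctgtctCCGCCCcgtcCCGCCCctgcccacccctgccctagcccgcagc
Col9a1: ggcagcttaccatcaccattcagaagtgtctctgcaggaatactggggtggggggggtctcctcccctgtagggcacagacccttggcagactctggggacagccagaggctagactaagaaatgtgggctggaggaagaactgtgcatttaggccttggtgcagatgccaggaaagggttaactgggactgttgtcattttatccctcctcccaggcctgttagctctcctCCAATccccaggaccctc
The Col3a1 sequence held 1 TATA box, whose first base lies 117 bases before the start, and neither of the other motifs. The Col8a1 sequence held 4 GC boxes and that of Col18a1 held 3, with 1 CCAAT box. The Col9a1 sequence held 1 CCAAT box, whose first base lies 18 bases before the start. In 38 such windows of 35 collagen genes the GC box was found in 57.9%, the CCAAT box in 34.2% and the TATA box in 13.2%, against 32.7%, 33.8% and 12.4% of 32851 windows in all. A match is a string of letters and was not tested as a binding site.

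Most of the compared genes for folding and modifying collagen chains were higher in mNRPCs, as were most for crosslinking enzymes, fibril-associated proteins and receptors. For secretion and processing 5 of 11 were higher, and differences between the lists were not tested. Over 5 lists with 62 genes, 46 were compared, 30 were higher, 8 were lower and 8 lay between (24.5% of all genes compared were higher and 30.0% lower), with a median log2 ratio of 1.62 against −0.12 for all genes. Of 17 folding and modification genes compared, 12 were higher and 3 were lower. Serpinh1, the gene of the collagen chaperone HSP47, had 822 FPKM in mNRPCs and 5.46 in retina, 150.4-fold higher (117 to 196). Fkbp10, a prolyl isomerase of collagen folding, was at 87.3 and 2.59 FPKM (log2 ratio 4.62). The genes of the prolyl 3-hydroxylation complex were at 57.3 and 4.28 FPKM for Crtap, 30.1 and 2.11 for P3h1, and 307 and 73.1 for Ppib. P4hb, the beta subunit of prolyl 4-hydroxylase, was at 348 and 70.4 FPKM (2.29), the lysyl hydroxylase gene Plod2 at 49.1 and 8.71 (2.37), and P3h4 at 38.1 and 4.08 (2.94). The lower genes were Colgalt2 at 0.0962 and 4.72 FPKM, P3h3 at 7.58 and 17.7, and P3h2 at 0.502 and 2.18.

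Of 11 secretion and processing genes compared, 5 were higher and 2 were lower. Pcolce, which enhances the removal of the carboxy-terminal propeptide, was at 344 and 3.55 FPKM, 96.9-fold higher in mNRPCs (67.8 to 144), and Bmp1, the gene of the protease that removes it, at 53.0 and 3.31 (log2 ratio 3.65). Adamts14, which trims the amino-terminal propeptide, was at 14.9 and 0.0309 FPKM, the latter under 1 estimated fragment. The related gene Adamts3 was listed at 0 in mNRPCs, against 3.84 FPKM in retina. Mia2, an export factor of the endoplasmic reticulum and the highest gene of this list in retina, was at 18.8 and 22.9 FPKM (−0.27). Among crosslinking enzymes, Loxl3 was at 35.8 and 0.568 FPKM (4.55), Loxl2 at 12 and 1.57 (2.34) and Loxl1 at 6.31 and 1.85 (1.36), while Lox was listed at 0 in mNRPCs, against 0.0951 FPKM in retina. All 3 crosslinking genes compared were higher.

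Of 9 fibril-associated genes compared, 6 were higher and 2 were lower. Sparc, the gene of a collagen-binding matrix protein, was at 667 and 52.0 FPKM (log2 ratio 3.66), Thbs1, the gene of thrombospondin 1, at 105 and 0.609 (6.04), and Postn, the gene of periostin, at 12.8 and 0.320 (3.38). The small leucine-rich proteoglycans differed among themselves. Prelp was at 32.1 and 8.50 FPKM (1.80) and Ogn at 4.72 and 1.64 (1.12), both called higher. Dcn, the gene of decorin, was at 1.96 and 2.58 FPKM (−0.27), Bgn at 0.0980 and 1.99 (−1.45), Fmod was listed at 0 and at 3.12, and Lum was listed at 0 in both libraries. Of 6 receptor genes compared, 4 were higher and 1 was lower. Ddr2, a receptor tyrosine kinase for fibrillar collagens, was at 42.7 and 0.407 FPKM, 105-fold higher (66.3 to 177), and Itgb1, the integrin beta chain shared by the collagen-binding integrins, at 268 and 14.2 (4.15). Ddr1 was at 28.3 and 21.5 FPKM (0.38), and the lower gene was Lair1, an immune receptor, listed at 0 and at 3.09.

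**Figure D4:**
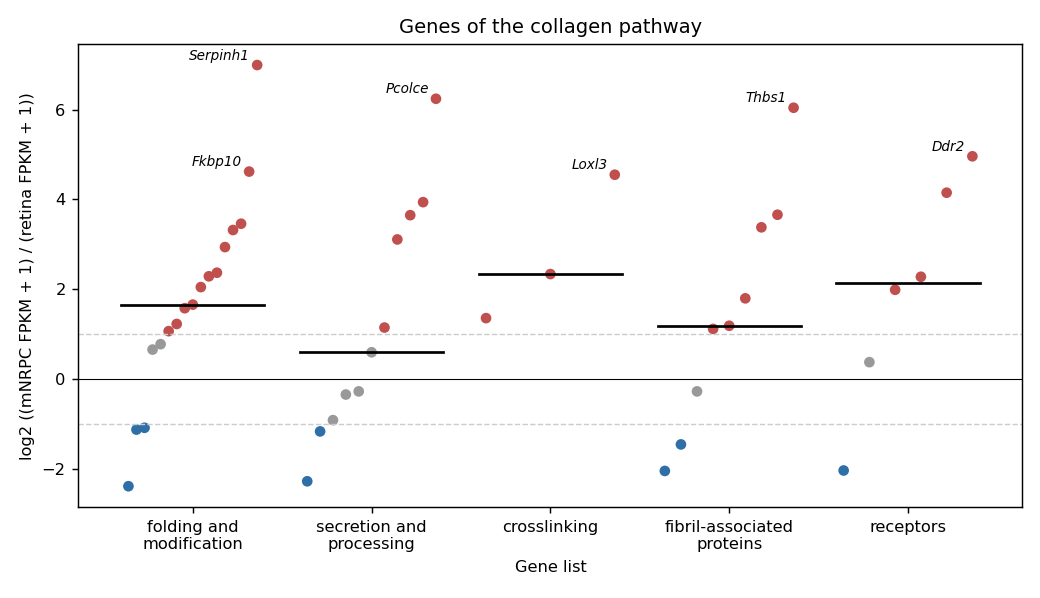
Log2 ratio of mNRPC to retina, with 1 added to each FPKM, for the genes of 5 collagen pathway lists with at least 1 FPKM in either library; each point is a gene, the bar is the median of the list, and dashed lines mark 1 and −1. Serpinh1 (6.99), Pcolce (6.24) and Thbs1 (6.04) lie highest, and the median of the folding and modification list is 1.66.

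Markers of mesenchymal cell types were mixed. Of the 12 fibroblast markers 6 were compared, 3 were higher in mNRPCs and 1 was lower, and their sum was 3896 FPKM in mNRPCs and 119.6 in retina, most of it S100a4 (3699 and 8.23). The mesenchymal transcription factor genes Prrx1 and Twist1 reached 108 and 83.7 FPKM in mNRPCs, against 0.439 and 0.185 in retina. Dcn and Pdgfra, which define many fibroblasts, were at 1.96 and 1.76 FPKM in mNRPCs, and Lum, Dpt, Pi16 and Meox1 were listed at 0. The surface marker Thy1, which ganglion cells also express, was at 0.244 and 106 FPKM. Pericyte and smooth muscle markers summed to 14.9 FPKM in mNRPCs and 18.5 in retina, and of 4 compared 2 were higher and 2 lower. Acta2 was at 10.1 and 4.39 FPKM and Pdgfrb at 4.49 and 1.24, both called higher, while Rgs5 and Tagln were listed at 0 in mNRPCs, against 8.16 and 2.23 in retina. Abcc9, Myh11 and Kcnj8 were listed at 0 in mNRPCs and stayed below 1 FPKM in retina. The part of these cells in the higher collagen values was not tested.

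The lower collagens moved with markers of tissue cells that were low or listed at 0 in the culture. Endothelial markers summed to 3.64 FPKM in mNRPCs and 62.1 in retina, and Cdh5, Tie1, Cldn5, Emcn, Esam and Erg were listed at 0 in mNRPCs. Kdr was at 0.0219 and 29.5 FPKM. Pigment epithelium markers summed to 9.80 and 225 FPKM, with Rpe65, Ttr, Lrat, Slc16a8 and Rgr listed at 0 in mNRPCs and most of the mNRPC sum on Rdh5 (9.28 and 4.63). Ttr was at 56.5 FPKM in retina, where Otx2, a gene that photoreceptors and bipolar cells also express, was at 119. Müller glia markers summed to 132 and 2086 FPKM, with Kcnj10 and Abca8a listed at 0 in mNRPCs, Glul, the highest of them in retina, at 31.4 and 897, and most of the mNRPC sum on Prdx6 (77.5 and 52.3). Astrocyte markers summed to 1.98 and 42.1 FPKM, with Gfap listed at 0 in mNRPCs, Pax2 near or at 0 in both and most of the mNRPC sum on Pdgfra (1.76 and 1.23). The study itself reports GFAP in mNRPCs by RT-PCR and by immunofluorescence. Of the microglia markers, C1qa, C1qb, C1qc, Cx3cr1, P2ry12 and Aif1 were listed at 0 in mNRPCs, and C1qc was at 6.11 FPKM in retina. Lens and cornea markers summed to 569 and 6.27 FPKM, nearly all of it Aldh3a1 in mNRPCs (567), and Cryaa, Mip, Lim2, Bfsp1 and Lctl were listed at 0 in both libraries. Krt12, a keratin of the corneal epithelium, was listed at 0 in the culture and at 2.32 FPKM in retina. Which cells of the tissue gave the collagen values of the retina library was not tested.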

How the data were processed

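Total RNA of 2 samples was sequenced by the authors, 1 mNRPC library and 1 retina library, and groups were taken from the labels. The deposited values are FPKM per RefSeq transcript. The methods of the study name Bowtie 2 and eXpress, without versions, whereas the processing notes of the submitters name TopHat2 2.0.10 and build GRCm38.p3. Reads shared by several transcripts are divided by estimation.

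Accessions were matched without version to RefSeq (GRCm38.p6), then to GENCODE M21. Symbols could be given to 74283 rows (69.6%), with 93.2% of the mNRPC FPKM and 89.9% of the retina FPKM. Rows were summed per symbol, and values below 1e-06 were read as 0. All per-sample columns were used.

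Following the study, 1 was added before log2. Genes of at least 1 FPKM in either library were compared. Depth was estimated from low values, whose FPKM times length should be multiples of that of 1 fragment, over transcripts of at least 1500 bp; the way of matching multiples was changed once after an unstable retina value was seen. Only 51.5% (mNRPC) and 52.0% (retina) of low rows lay within 0.2 of a whole fragment, so fragment numbers are estimates and no count test was run. Scripts were tested on simulated data. Python 3.11.15, pandas 2.3.3 and scipy 1.17.1 were used.

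Named were collagen genes of at least 1 FPKM, transcripts where 2 or more held 20% of a gene (only in part, while those of Col9a1, Col16a1 and Col18a1 were chosen after their values were seen), genes of other lists with at least 10 FPKM and a 4-fold difference (for cell type lists only in part), and the highest gene of each list. Other genes were named after their values were seen, and some marker genes are not reported here. The members, lists and classes were chosen with earlier results of these data known. Alternatives covered the pseudocount, filter, threshold, scaling, rows and matching.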

Additional observations from a re-analysis of the deposited data

How the results depend on the processing

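Of the 26 collagen genes counted as higher or lower, all 26 kept direction and threshold with a pseudocount of 0.1, with each library rescaled to a common sum, by upper quartile scaling and by trimmed mean scaling, as did the 23 still compared with curated rows only and the 20 still compared with accessions matched with version. Calls ended for Col16a1, Col20a1 and Col26a1 in both of these settings, and for Col4a2, Col5a3 and Col11a2 with versioned accessions. The rows of these genes were left out or fell under 1 FPKM. Other calls were gained. With a pseudocount of 0.1 Col1a1 and Col22a1 were also called higher, and Col4a4, Col12a1 and Col27a1 lower. With a common sum Col4a4, Col6a2, Col12a1 and Col27a1 were also called lower. Col27a1 was called lower by upper quartile scaling, with curated rows and with versioned accessions as well. Rescaling to a common sum moved the median of all genes to −0.61 and the split of all called genes from 44.9% to 32.0% higher. For collagens it was 12 higher and 18 lower (40.0% higher, against 46.2%), and their median stood 0.64 below that of all genes, against 0.59 as deposited. At a minimum of 5 FPKM the split was 66.7% higher for collagens and 50.9% for all genes, and at the 4-fold threshold 70.6% and 44.3%. The number of lower collagens was 6 at a minimum of 5 FPKM and 5 at 4-fold, and at 5 FPKM the collagen median turned to 3.35, since low genes higher in retina left the comparison.

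With a pseudocount of 0.1 the transmembrane summed log2 ratio was −3.77, against −3.14. After rescaling to a common sum the summed log2 ratios were 3.41 (fibrillar), 3.06 (basement membrane), −1.04 (FACIT), −1.84 (beaded), −3.86 (transmembrane) and 2.92 (other). As deposited they were 3.90, 3.54, −0.53, −1.31, −3.14 and 3.39. Upper quartile scaling gave 3.77 for fibrillar and 3.41 for basement membrane genes. With curated rows only they were 4.31 (fibrillar), 3.86 (basement membrane), −3.29 (FACIT) and 3.76 (other), and with versioned accessions 4.47, 3.64, −3.29 and 3.73. The FACIT value moved most, as the predicted rows of Col16a1 left the sum. For the other settings that moved a value the cause was not tested. Without Col3a1, an alternative added after the data were seen, the fibrillar value was 1.44.

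The collagen share of mNRPCs was 0.548% of estimated fragments, over rows of known length, 0.168% with curated rows, 0.135% with versioned accessions and 0.0898% without Col3a1, against 0.163%. That of retina was 0.0766%, 0.0371% and 0.0284% in the former 3 settings, against 0.0355%. The ratio of Col5a1 to Col5a2 in mNRPCs was 2.26 with curated rows and 2.26 with versioned accessions. No paired analysis was possible because there was only 1 library of each kind. Levels that rest on 3 or fewer estimated fragments have wide intervals at this depth.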

Other observations

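Some collagen genes used different transcript rows in the libraries. A predicted transcript of Col5a1 held 31.1% of the gene in mNRPCs and 4.68% in retina. For Col4a5, its curated transcripts of 6536 and 6285 bp held 36.4% and 29.7% in mNRPCs and 8.09% and 7.44% in retina, where a predicted transcript held 82.0% (26.1% in mNRPCs). For Col22a1, a predicted transcript held 77.0% in mNRPCs and 15.9% in retina, while the curated one held 22.5% and 72.3%. Col2a1 in retina was divided over curated transcripts of 5104 bp (38.0%) and 4862 bp (37.6%) and a predicted one (24.4%). Col4a6 was divided over a curated and a predicted transcript, with 57.5% and 42.5% in mNRPCs and 42.2% and 57.8% in retina. In retina, Col25a1 was divided over 2 curated transcripts (62.2% and 32.2%), and the curated transcript held 40.6% of Col11a1 and 62.8% of Col20a1. The curated transcript held 36.7% of Col27a1 in mNRPCs and 62.8% in retina, and for Col12a1 a curated one held 61.3% and 77.3%. No interval can be given for these shares, because the uncertainty of the estimation was not used here.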
